A study of Mus musculus with 4 samples.

Results

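The 10 genes described here encode the 5 mouse NF-kB subunits (Nfkb1, Nfkb2, Rela, Relb and Rel) and 5 proteins of the IkB family that bind them (Nfkbia, Nfkbib, Nfkbie, Bcl3 and Nfkbiz). They were chosen by name from the gene symbols of the deposited array table, which holds 27273 symbols after they were updated through RefSeq gene IDs. All 10 were found, on 21 probes, and all 10 passed the filter on dim probes, among 17660 genes or unnamed probes tested. Transcripts were measured on 4 single-colour Agilent arrays, 1 per culture, in aortic vascular smooth muscle cells grown from explants of adult C57BL/6J mice with the genotype EP4-Tg. There were 2 groups, each of 2 cultures labelled as biological replicates. The control cultures were left untreated for 24 h, and the others received prostaglandin E2 (PGE2) for 24 h. All 4 cultures carry EP4-Tg, so the comparison is about PGE2 and leaves the effect of the genotype aside. EP4 is a Gs-coupled PGE2 receptor that raises cyclic AMP. The dose of PGE2, the promoter that drives the transgene and the number of mice are not given in the sources used here.

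NF-kB is a family of transcription factors that act as pairs of subunits on kappa-B sites in DNA. In resting cells IkB proteins hold the pairs in the cytoplasm. Inflammatory receptors activate IkB kinase, which marks the inhibitor for destruction and frees the pair to enter the nucleus. Several IkB genes are themselves NF-kB targets, which makes a feedback loop. Bcl3 and Nfkbiz belong to an atypical nuclear branch, whose proteins bind p50 or p52 pairs on DNA and can raise or lower transcription of chosen targets. In arterial smooth muscle cells the pathway is known for driving chemokine, adhesion and protease genes in inflamed vessels. It is controlled largely by protein location and breakdown, which arrays of RNA do not measure.

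RefSeq's promoter table (build GRCm38.p6; each window has 250 bases before and 50 after a gene's start) held 9 windows for 7 of the 10 genes, all except Nfkb1, Relb and Nfkbiz. They were searched for the kappa-B consensus, the site bound by the products of these genes, on both strands. Of the 9 windows, 7 held a match, in 5 genes: Nfkb2, Rel, Bcl3, Nfkbia and Nfkbie. Windows 1, 2 and 3 of Nfkb2 are among the 7, and windows 2 and 3 overlap and share a match, which is counted in both. Among all 32851 windows of the table, 4.51% held one. The stretches below show 1 match for each of those genes, on the gene's own strand, with the match in capitals, so that the only gene that rose with PGE2 (Bcl3) can be set beside those that were not called.
Bcl3, chr7:19822734-19822763 (minus strand): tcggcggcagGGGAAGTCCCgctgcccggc
Nfkbia, chr12:55492657-55492686 (minus strand): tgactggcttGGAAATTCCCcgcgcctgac
Nfkb2, chr19:46304689-46304717 (plus strand): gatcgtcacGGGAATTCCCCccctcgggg
Rel, chr11:23771042-23771070 (minus strand): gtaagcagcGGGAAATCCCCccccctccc
Nfkbie, chr17:45555584-45555613 (plus strand): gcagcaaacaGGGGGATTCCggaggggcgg
The Bcl3 match begins 2 bases after the annotated start, and the others lie 29 (Nfkbia), 39 (Nfkb2), 92 (Rel) and 106 (Nfkbie) bases before it. In Nfkb2 and Rel, matches on the 2 strands overlap by all but 1 base and are shown as 1 stretch. A match is a description of the letters and says nothing of binding.

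In the same 300-base windows, 0 of the 7 genes held the full cAMP response element TGACGTCA, which 1.79% of all windows held. Its short form TGACG, which also lies within the full element, was found in 3 genes (Nfkb2, Rel and Nfkbib) and in 20.8% of all windows. The STAT site TTCNNNGAA was found in Nfkb2 only (8.3% of all windows), and the AP-1 site TGANTCA in Nfkb2 and Nfkbie (7.81%). All were searched on both strands. The counts here are of genes and the shares are of windows, of which Nfkb2 has several, so the 2 are not like for like. The window before the start of Bcl3, the gene with the largest change of the 10, is printed in full, and it held none of the 5 motifs.
Bcl3, chr7:19822756-19823005 (minus strand): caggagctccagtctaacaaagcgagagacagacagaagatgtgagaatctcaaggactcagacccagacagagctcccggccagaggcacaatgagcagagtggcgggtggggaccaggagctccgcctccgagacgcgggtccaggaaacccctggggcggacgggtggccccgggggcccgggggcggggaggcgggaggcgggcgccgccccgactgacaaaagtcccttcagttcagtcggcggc

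Signals are given as log2 of the processed intensity minus the array's 75th percentile, so that 0 is that percentile on each array. Probes differ in how they bind, so levels are compared only between arrays for the same probe. Changes are PGE2 minus control ± the limma standard error, with n = 2 in each group, and a gene was called at an adjusted p under 0.05 (Benjamini-Hochberg over all tested genes). A probe is called dim on an array where Agilent's software did not flag it as well above background. Between 47.9% and 53.8% of the spots of an array carried that flag, arrays of 1 group correlated across genes at 0.974 and 0.978, and arrays of different groups at 0.943 to 0.958. Of the 21 probes, 18 carried it on all 4 arrays and none was saturated. With 2 arrays a group, their number limits the precision of every value.

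The smooth muscle markers listed for the check were partly present. Of 10, between 6 and 8 were well above background on an array, among them Acta2 and Tagln, whereas Myocd, the cofactor that drives the contractile programme, was on none. Of the 6 tested, all had values below 0, with a median change of -1.95. The integrin gene Itga8 fell by 4.88 ± 0.32 (adjusted p = 0.0438, limma), and Tagln and Acta2 stood at -1.79 and -2.10 without being called. The summed signal of the list, taken on the linear scale and so carried by its brightest probes, was 8.68 and 9.49 in control and 7.04 and 7.45 with PGE2 (log2). Of 8 fibroblast markers 7 were well above background on every array (summed signal 7.50 and 8.09 in control, 6.62 and 6.74 with PGE2). None of the 7 was called and their values lay on both sides of 0, from -2.91 for Dcn to 2.78 for Pi16, with a median of -0.01. Of 12 macrophage and monocyte markers 5 or 6 were, with Adgre1, Lyz2, C1qc, Fcgr1 and Mrc1 on none (6.00 and 6.28 in control, 5.37 and 5.95 with PGE2). Of the 5 tested, none was called, but the median was 0.62. In 3 of them both PGE2 arrays lay above both control arrays: Cd68 (2.09 ± 0.36, adjusted p = 0.109), Csf1r (0.98 ± 0.43, adjusted p = 0.338) and Cd14 (0.62 ± 0.27, adjusted p = 0.338, all limma). The bright Itgam probe, at -0.61 ± 0.27, and Ptprc, at -0.36 ± 0.24, lay the other way, with both PGE2 arrays below both control arrays. Over all tested genes 24% showed the first arrangement and 28.3% the second. Of 9 endothelial markers 2 to 4 were well above background, with Tek, Tie1, Emcn and Cldn5 on none. Their summed signals were -0.06 and 0.12, against -0.62 and -0.25. Of 10 lymphocyte markers 2 to 5 were (1.49 and 1.91, against 1.41 and 1.60), and of 6 adipocyte markers 1 or 2 (-0.63 and 0.44, against -1.39 and -0.76). The part of these differences in the results below was not tested, and in bulk RNA fewer cells of a type and less RNA per cell cannot be told apart.

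Of the 10 genes, 1 rose with PGE2, 0 fell and 9 were not called, where 0.396% of all tested genes rose, 0.272% fell and 0.668% were called in all. The gene that rose was Bcl3, by 3.70 on the log2 scale. Nfkbiz, the other gene of the nuclear branch, stood at 1.48 without passing the threshold, and the other 8 lay between -0.43 and 0.18. The median change of the 10 genes was 0.07, beside -0.03 over all tested genes, whose quartiles were -0.33 and 0.23. At an unadjusted p under 0.05, 2 of the 10 stood higher and 0 lower, beside 7.31% and 10.5% of all tested genes.

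**Figure D1:**
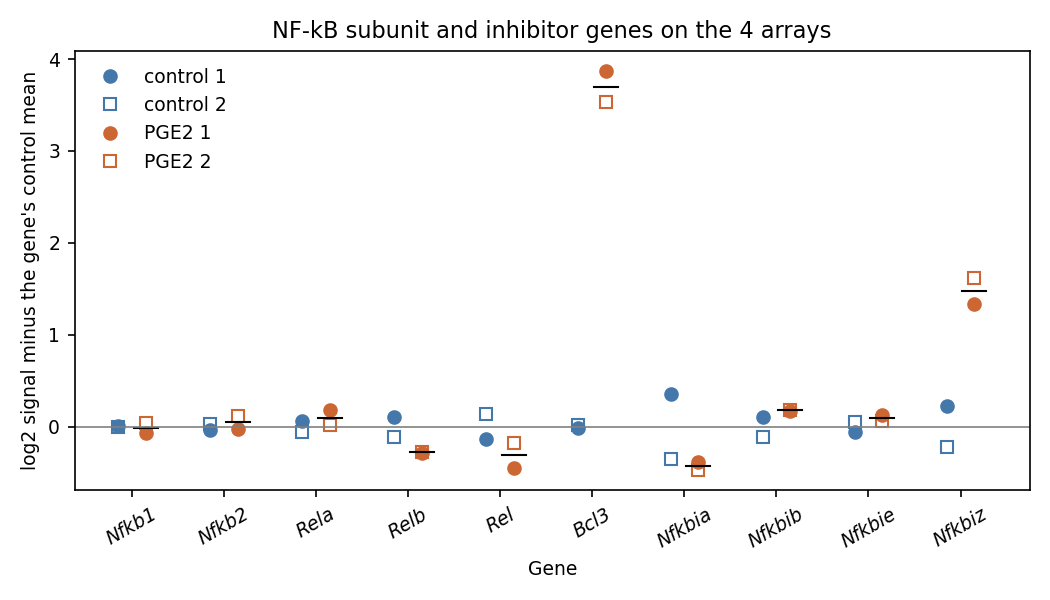
Each point is the log2 signal of 1 array minus the gene's control mean (vertical axis), for the probe that stands for each of the 10 genes (horizontal axis); blue is control, orange is PGE2, filled circles are replicate 1, open squares are replicate 2 and bars are the PGE2 means. Both PGE2 points of Bcl3 and of Nfkbiz lie clear of their control points, with mean differences of 3.70 and 1.48.

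Of the subunits, Rela encodes p65, which carries the main activation domain of the classical pair. Its signal was 4.86 and 4.74 in control and 4.98 and 4.82 with PGE2, so the groups overlapped. The change was 0.10 ± 0.16 with a 95% interval from -0.35 to 0.55 (adjusted p = 0.786, limma). A second, dimmer Rela probe gave -0.01 ± 0.17.

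Nfkb1 encodes the precursor of p50, the usual partner of p65. It read 1.87 and 1.86 in control and 1.80 and 1.90 with PGE2, and the PGE2 arrays lay on both sides of the control arrays. The change was -0.01 ± 0.15 (95% interval -0.43 to 0.40, adjusted p = 0.970, limma). The other Nfkb1 probes gave -0.14 ± 0.31 and 0.02 ± 0.16, so none of the 3 was called. The sign of a value this close to 0 moved with the scaling, to 0.24 on the authors' deposited scale, and with the arrays, to 0.04 without PGE2 replicate 1.

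Nfkb2 encodes the precursor of p52, the subunit of the alternative pathway, and is itself a known NF-kB target. Its signal was 1.60 and 1.67 in control and 1.62 and 1.75 with PGE2, with overlapping groups. The change was 0.05 ± 0.16 (95% interval -0.38 to 0.48, adjusted p = 0.900, limma), and turned to -0.02 without PGE2 replicate 2. A second probe gave 0.11 ± 0.18.

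Relb and Rel were the subunit genes with values below 0 in which the groups did not overlap. Relb encodes the partner of p52, and Rel encodes c-Rel, best known from lymphocytes. Relb read 1.00 and 0.78 in control and 0.61 and 0.62 with PGE2, a change of -0.28 ± 0.17 (95% interval -0.74 to 0.18, adjusted p = 0.453, limma). Its other probes gave -0.52 ± 0.19 and -0.38 ± 0.15, so that on all 3 probes both PGE2 arrays lay below both control arrays. Over all tested genes 28.3% showed that arrangement, and none of the 3 probes was called in a fit over all 26100 kept probes (adjusted p from 0.282 to 0.476).

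Rel read -0.54 and -0.28 in control and -0.86 and -0.59 with PGE2. The change was -0.31 ± 0.20 (95% interval -0.86 to 0.23, adjusted p = 0.481, limma). A second Rel probe was dim on 3 of the 4 arrays and did not pass the filter. Of the 5 subunit genes, therefore, none was called, and on the main probes the 95% intervals reached no higher than 0.55 and no lower than -0.86 on the log2 scale.

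**Figure D2:**
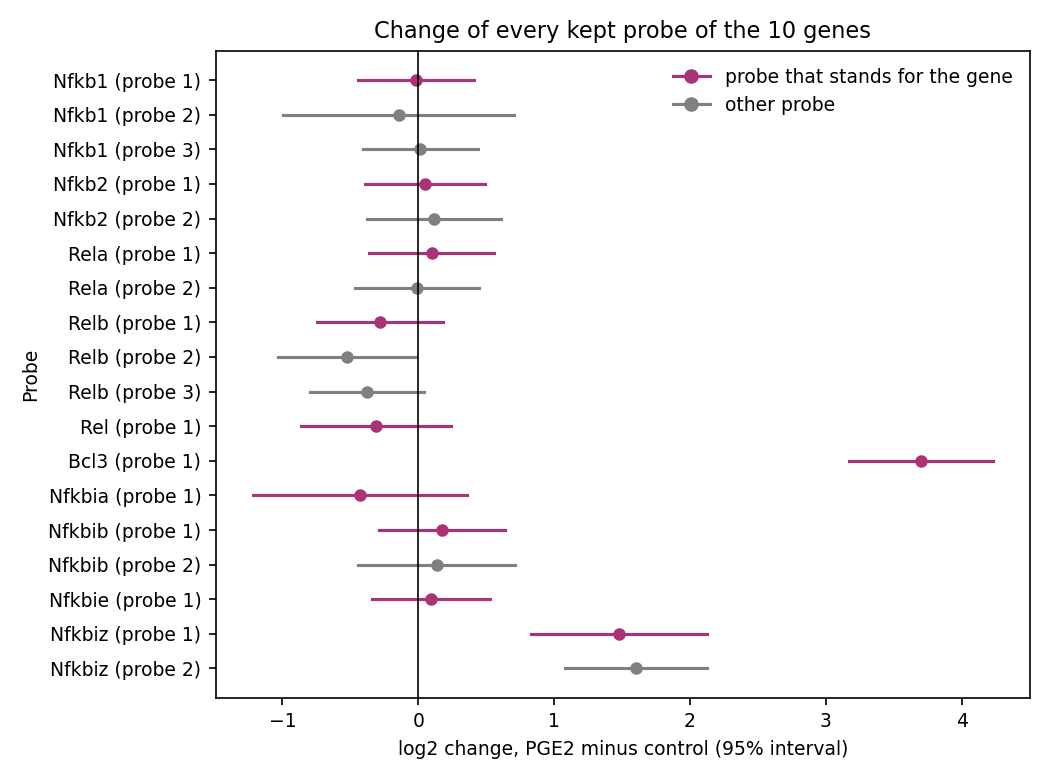
The log2 change with PGE2 (horizontal axis) of each of the 18 probes that passed the filter, with its 95% interval from the limma fit over all kept probes (lines); purple marks the probe that stands for the gene and grey the others. The intervals of Bcl3 and of both Nfkbiz probes lie above 0, that of 1 Relb probe ends at -0.02, and the others include 0.

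Of the classical inhibitors, Nfkbia encodes IkB alpha, the inhibitor that is destroyed first and remade as an NF-kB target. It read 3.28 and 2.57 in control and 2.55 and 2.45 with PGE2. Both PGE2 arrays lay below both control arrays, the nearest only by 0.03, and the control arrays differed from each other by more than the group means did. The change was -0.43 ± 0.29 (95% interval -1.22 to 0.36, adjusted p = 0.502, limma). Without control replicate 1, the brighter one, it was -0.07, and without control replicate 2 it was -0.78.

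Nfkbib encodes IkB beta, an inhibitor with slower turnover. It read 1.42 and 1.20 in control and 1.48 and 1.49 with PGE2, with both PGE2 arrays above both control arrays. The change was 0.18 ± 0.17 (95% interval -0.28 to 0.63, adjusted p = 0.626, limma), and a second probe gave 0.14 ± 0.21. Nfkbie, which encodes IkB epsilon, read -1.25 and -1.14 in control and -1.07 and -1.13 with PGE2. Its PGE2 arrays also lay above the control arrays, by 0.01 at the nearest, and its change was 0.09 ± 0.15 (95% interval -0.33 to 0.52, adjusted p = 0.784, limma). Over the 10 genes, both PGE2 arrays lay above both control arrays in 4 and below them in 3, beside 24% and 28.3% of all tested genes. The groups thus did not overlap in 7 of the 10, beside 52.2% of all tested genes.

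Bcl3 encodes a nuclear IkB protein that binds p50 and p52 pairs and was first known from B cell leukaemia. Its signal was 0.14 and 0.18 in control and 4.03 and 3.69 with PGE2. The control arrays differed by 0.04 and the PGE2 arrays by 0.34, and the groups stood 3.70 ± 0.19 apart on the log2 scale, a 13.0-fold rise (95% interval 3.18 to 4.22, adjusted p = 0.0438, limma). It ranked 7th of 17660 by p and 70th by size of rise. The probe was dim on no array, so the fold is measured in both groups. A second Bcl3 probe, for another transcript model, was dim on all 4.

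Over 13 alternative settings the change stayed between 3.53 and 3.96. The adjusted p ran from 0.0318 to 0.214 and missed 0.05 in 4 settings. These were the authors' deposited scaled signal (0.0565), no filter on dim probes (0.214), without control replicate 1 (0.144) and without control replicate 2 (0.107). Limma called 0 genes in all in each of these 4 settings, with 4202, 2685, 2711 and 2963 at an unadjusted p under 0.05.

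Nfkbiz encodes IkB zeta, a nuclear IkB protein that is quickly induced by interleukin 1 and Toll-like receptors and helps p50 switch on a second set of inflammatory genes, Il6 and Lcn2 among them. Its signal was -0.08 and -0.53 in control and 1.03 and 1.31 with PGE2, so the groups were separated by 1.11 at their nearest arrays. The difference was 1.48 ± 0.24, or 2.79-fold (95% interval 0.83 to 2.12, unadjusted p = 0.00292, adjusted p = 0.102, limma), and it ranked 506th by p. It did not pass the threshold over all genes.

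A second Nfkbiz probe for the same transcript read -1.49 and -1.48 in control and -0.05 and 0.28 with PGE2, a difference of 1.60 ± 0.19 (adjusted p = 0.0695 over all kept probes, limma). The probes for this transcript therefore gave 2.79-fold and 3.03-fold. The remaining probe, for another transcript model, was dim on all 4 arrays. Over the 13 alternatives the Nfkbiz value stayed between 1.25 and 1.74 and was called in none, with adjusted p from 0.0688 to 0.379.

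**Figure D3:**
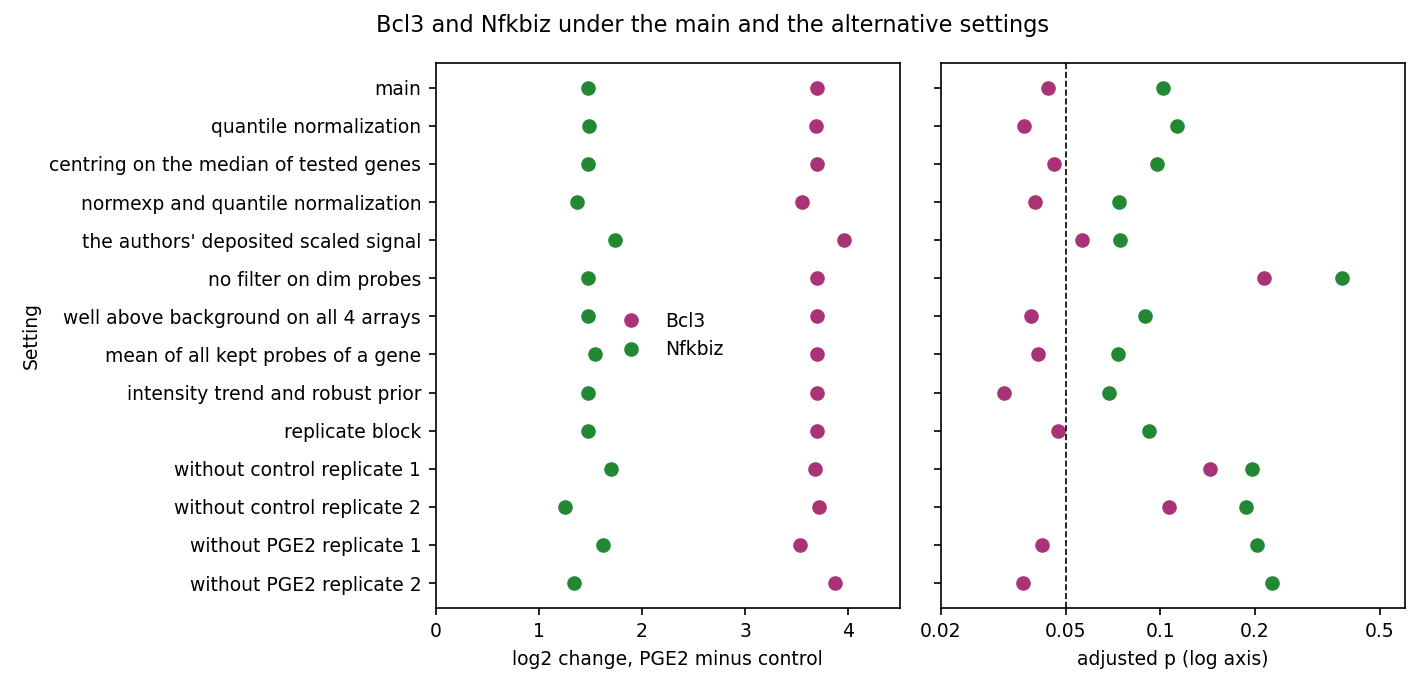
Log2 change with PGE2 (left) and adjusted p on a log axis (right) of Bcl3 (purple) and Nfkbiz (green) under the main setting (top) and the 13 alternatives; the dashed line is 0.05. The Bcl3 change stays between 3.53 and 3.96 while its adjusted p lies on both sides of the line, and Nfkbiz stays right of it throughout.

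The 10 genes do not lie together in the genome, but Bcl3, Relb and Nfkbib share the cytoband 7qA3 in the deposited table. Their changes were 3.70, -0.28 and 0.18. The nearest tested protein-coding genes to Bcl3 in RefSeq's order, taken after the Bcl3 value was seen, were Cblc and Bcam on one side and Gm19345 and Pvr on the other. Cblc stood at 0.14 ± 0.25, Bcam at -0.76 ± 0.28 and Pvr at 1.28 ± 0.17, and none of the 4 was called (adjusted p from 0.0819 to 0.800, limma). Gm19345 was dim in both control cultures and is given no fold.

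The genes whose pattern over the 4 arrays was most like that of Bcl3, each centred on its own mean, were Ly6c1, Sgk1, Ly6c2, Ahsg and Klb, out of 12613 named genes compared. The root mean square differences from Bcl3 of the first 3 were 0.15, 0.16 and 0.17 on the log2 scale. Ly6c1 and Ly6c2, which encode surface antigens, are near-identical copies whose probes may read each other's transcripts. Sgk1, a serum- and glucocorticoid-regulated kinase gene, read 1.20 and 1.55 in control and 5.23 and 5.16 with PGE2. Ahsg, the gene of the plasma protein fetuin A, and Klb, the gene of beta-klotho, were dim in both control cultures, so their distance from Bcl3 has no measured value. Both passed the filter through the PGE2 group alone, and their PGE2 signals were at least 2.82-fold and 2.64-fold higher. The genes of this paragraph were chosen for their likeness to Bcl3, a called gene. A large rise was therefore fixed by that choice and is no separate result. With 4 arrays in 2 groups, this measure mostly reflects a similar size of rise.

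**Figure D4:**
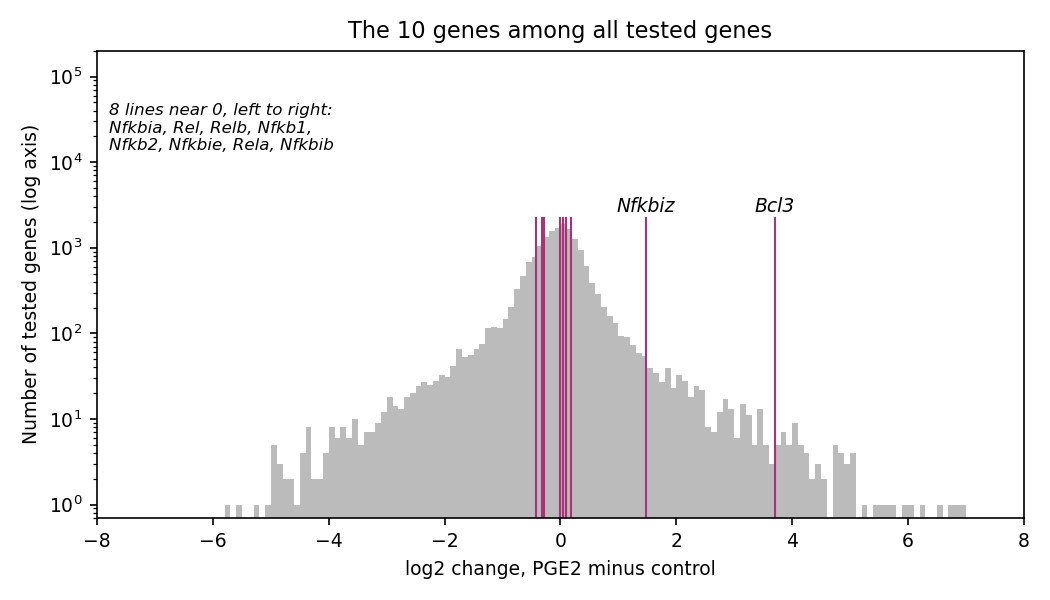
Grey bars count all 17660 tested genes by log2 change with PGE2 (horizontal axis; counts on a log axis), and purple lines mark the 10 genes. Of the 10, 8 lie between -0.43 and 0.18, within the bulk of all genes, while Nfkbiz at 1.48 and Bcl3 at 3.70 lie in the right tail.

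The rest of the pathway was read from lists that were chosen with earlier results of these data known. Their counts, set beside shares of all tested genes, are therefore descriptions only. Of 10 other IkB-like and nuclear regulators, all tested, 0 were called, with a median change of 0.17. Nfkbid encodes IkB NS, another atypical nuclear IkB. It read -3.10 and -1.50 in control and -3.71 and -3.04 with PGE2, so the groups overlapped. The value was -1.07 ± 0.62 (95% interval -2.77 to 0.63, adjusted p = 0.441, limma). With an interval on both sides of 0, its direction was not established. Pdlim2, whose protein helps to remove p65 from the nucleus, had the smallest p of that list, at -0.99 ± 0.17 (adjusted p = 0.109), with 5.03 and 5.02 in control and 3.92 and 4.15 with PGE2. Nkap, a nuclear protein gene, stood at 0.36 ± 0.17 (adjusted p = 0.354).

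None of the 17 genes listed as IkB kinases, their activators and partner proteins was called, with a median of 0.07. Map3k14 encodes NIK, the kinase that starts the alternative pathway. It read -0.90 and -0.83 in control and 0.18 and 0.13 with PGE2, a difference of 1.02 ± 0.15 (adjusted p = 0.0909, limma). The groups did not overlap. Tank, an adaptor of TBK1 and IKK epsilon, stood at 0.73 ± 0.20 (adjusted p = 0.198), and Map3k8, which binds the Nfkb1 precursor, at -0.64 ± 0.34 (adjusted p = 0.410).

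Of 26 adaptor and ubiquitin ligase genes, 25 were tested and 0 called, with a median of -0.01. Traf5, a TNF receptor adaptor, read 1.06 and 0.16 in control and -0.61 and -0.71 with PGE2 (-1.27 ± 0.35, adjusted p = 0.203, limma). Irak3, which damps Toll-like receptor signalling, stood at 1.06 ± 0.38 (adjusted p = 0.277), and Tirap, an adaptor of the same receptors, at 0.34 ± 0.16 (adjusted p = 0.361).

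Of 18 genes listed as deubiquitinases and brakes, 16 were tested, 1 rose and 0 fell, with a median of -0.02. The gene that rose was Traf3ip3, which encodes a TRAF3-binding protein best known from lymphocytes and is no deubiquitinase. Whether Traf3ip3 or Traf3ip2, which is also on the list, acts as a brake was not tested. Traf3ip3 was dim in both control cultures and passed the filter through the PGE2 group alone. Its PGE2 signal was at least 6.70-fold higher, and its fitted difference had an adjusted p = 0.0462 (limma). Tnfaip3 encodes A20, the best known brake on NF-kB and itself a target. It read 0.89 and 0.57 in control and -0.91 and -0.79 with PGE2, a value of -1.58 ± 0.19 (adjusted p = 0.0707), outside the threshold and opposite in direction to Bcl3. Cyld, another deubiquitinase gene, stood at -0.80 ± 0.23 (adjusted p = 0.219). The list's 1 call was lost in 7 of 13 alternatives, among them without control replicate 1 and without control replicate 2.

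Of 42 textbook NF-kB target genes other than the 10, 26 were tested, 3 rose and 0 fell, beside 0.396% and 0.272% of all tested genes. The median was 0.03, with quartiles of -0.79 and 1.74. That median had no stable sign: it ran from -0.12 without control replicate 2 to 0.39 without PGE2 replicate 1, with 0.30 without control replicate 1 and 0.15 without PGE2 replicate 2, and was -0.13 without the filter and 0.51 with the mean of all kept probes. The 3 were Cxcl1, a neutrophil chemokine gene, Tnfrsf9, a costimulatory receptor gene, and C3, the central complement gene. Cxcl1 read 1.20 and 1.79 in control and 4.59 and 4.56 with PGE2, and C3 read 5.38 and 5.50 in control and 7.18 and 7.26 with PGE2 (both adjusted p = 0.0465, limma). The changes were 3.07 ± 0.25 and 1.77 ± 0.16. Tnfrsf9 was dim in both control cultures and passed the filter through the PGE2 group alone. Its PGE2 signal was at least 14.1-fold higher, and its fitted difference had an adjusted p = 0.0465 (limma). With probes above background on all 4 arrays, 2 target genes were called higher. The count of 3 ran from 0 to 4 over the alternatives, and was 0 without control replicate 1, 0 without control replicate 2 and 1 without PGE2 replicate 1. At an unadjusted p under 0.05, 7 of the 26 had a value above 0 and 8 one below 0, beside 7.31% and 10.5% of all tested genes.

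Il6 and Lcn2, targets known to need IkB zeta, were not called. Il6 was dim in both control cultures and passed the filter through the PGE2 group alone. Its PGE2 signal was at least 25.0-fold higher, and its fitted difference had an adjusted p = 0.0576 (limma). Lcn2, an iron-binding acute-phase gene, read -2.40 and -1.67 in control and 0.45 and 1.59 with PGE2 (3.05 ± 0.49, adjusted p = 0.103). Csf1, the gene of a macrophage growth factor, stood at -2.27 ± 0.37 (adjusted p = 0.103). Ccnd1, the cyclin D1 gene, stood at -1.76 ± 0.19 (adjusted p = 0.0616), and Vcam1, an adhesion gene, at -1.27 ± 0.23 (adjusted p = 0.120). Icam1, Sele and Cxcl2, other targets of p65, did not pass the filter and were not tested.

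**Figure D5:**
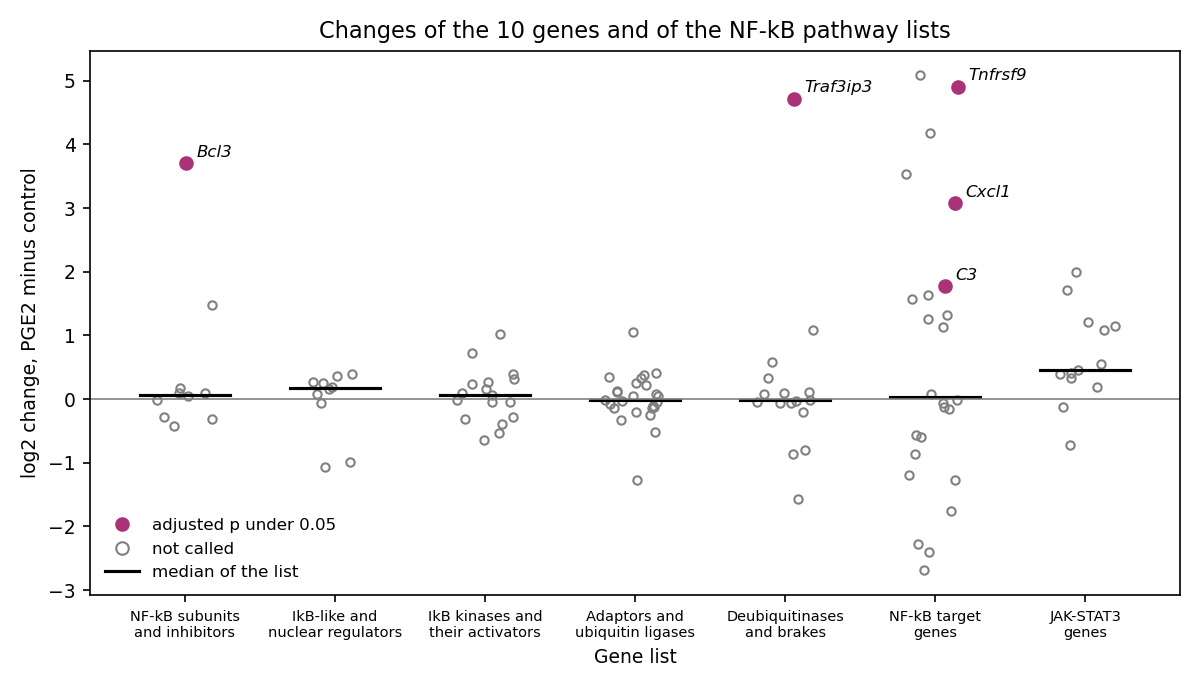
Log2 change with PGE2 (vertical axis) of each tested gene in 7 lists (horizontal axis; points are spread sideways for sight, and genes dim in a group stand at their fitted value, which is no bound); filled purple points passed an adjusted p of 0.05 and bars are list medians. Called genes are Bcl3, Traf3ip3, Tnfrsf9, Cxcl1 and C3, and the target list spreads in both directions around its median of 0.03.

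STAT3 is known to drive Bcl3 transcription in other cells, so a list of JAK-STAT3 genes was read as well. Whether STAT3 took part in the Bcl3 rise was not tested, and the list was chosen with earlier results of these data known. Of 17 genes 13 were tested and 0 called, with a median of 0.46. The median was 0.28 without PGE2 replicate 2, 0.75 without control replicate 2 and 0.83 without PGE2 replicate 1. It was 0.72 on the authors' deposited scale, where the median of all tested genes was 0.23. In 9 of the 13 both PGE2 arrays lay above both control arrays, beside 24% of all tested genes. Stat3 itself read 3.77 and 3.70 in control and 4.85 and 4.80 with PGE2, a difference of 1.09 ± 0.15 (adjusted p = 0.0847, limma). Socs3, a feedback inhibitor and STAT3 target, stood at 2.00 ± 0.30 (adjusted p = 0.0898), with 0.78 and 0.36 in control and 2.27 and 2.88 with PGE2. Il4ra, a cytokine receptor gene, stood at 1.22 ± 0.20 (adjusted p = 0.105). Of the 13, 11 had values above 0 and 2 below it, where 47.3% of all tested genes had values above 0. Those 2 were Tyk2, a JAK gene, at -0.72 ± 0.19 (adjusted p = 0.190, limma), and Il6st at -0.12 ± 0.20 (adjusted p = 0.784, limma).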

How the data were processed

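The scanner files hold a deposited intensity per spot. Their headers name Agilent Feature Extraction 11.5.1.1, array design 074809 and probe positions on mm9, and the version given in the submitters' processing notes is 12.0.3.1. The deposited series table holds that intensity multiplied by a constant for each array, and its 4 other columns of values per sample were not used. Gene symbols came from the table and were updated through RefSeq gene IDs (assembly GRCm38.p6): 44989 of 47700 spots with a symbol matched.

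Intensities were taken to log2 and centred on the 75th percentile of their array. Repeat spots were averaged and 158 probes with outlier flags left out. The filter kept 26100 probes that were flagged as well above background in both cultures of a group, and the brightest kept probe stood for its gene (17660 tested). Groups were compared with limma 3.58.1 in R 4.3.3 (lmFit, eBayes, Benjamini-Hochberg adjustment, 2 residual and 2.15 prior degrees of freedom), with data.table (version 1.17.8) for reading. Steps were tested on simulated data. Where a gene was dim in 1 group, the fold is a lower bound. It sets the bright group's mean against, on each dim array, the higher of the gene's own signal and the dimmest flagged signal. Such a gene passed the filter through its bright group alone. Its adjusted p belongs to the fitted difference, which uses its dim signals, and not to the bound.

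The 10 genes, the pathway lists and the marker lists were chosen with earlier results of these data known. All 10 genes are named, and of each pathway list the called genes and the 3 with the smallest p. Added after their values were seen were Il6, Ccnd1, Csf1, Lcn2, Vcam1, Icam1, Sele, Cxcl2, Tyk2 and Il6st. So were the markers given values and the neighbours of Bcl3. Alternatives were quantile normalization, median centring, normexp with quantile normalization, the deposited scale, no or a stricter dim-probe filter, the mean of all kept probes, a trended robust prior, a replicate block and leaving out each array.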

Additional observations from a re-analysis of the deposited data

Results flagged for a closer look

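A second probe for Rel, left out by the filter on dim probes, was well above background on PGE2 replicate 2 alone, where it read -2.87 on the log2 scale. On the control arrays it read -5.93 and -5.62 and on PGE2 replicate 1 -5.75, none well above background. The main Rel probe, well above background on all 4 arrays, read -0.86 on PGE2 replicate 1 and -0.59 on PGE2 replicate 2.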

How the results depend on the processing

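Of the 10 genes, 8 kept the direction of their change in all 13 alternatives. Nfkb1 turned to 0.24 on the authors' deposited scale, where the median of all tested genes is 0.23, and ran from -0.065 to 0.036 with 1 array left out. Nfkb2 ran from -0.021 to 0.11 with 1 array left out. No alternative called any of the 10 lower. The number called higher was 1, but 0 on the deposited scale and 0 without the dim-probe filter, and 0 to 1 when 1 array was left out. Over all tested genes, 70 were called higher and 48 lower. Both counts were 0 on the deposited scale and without the filter, 39 and 15 with probes above background on all 4 arrays, and 88 and 84 with the replicate block. When 1 array was left out they were 0 to 98 and 0 to 76. Of the target genes, 3 were called higher, but 0 with quantile normalization, on the deposited scale and without the filter, and 0 to 2 with 1 array left out. The number called lower was 0, but 1 with normexp and 1 with the trended prior, and 0 to 1 with 1 array left out. The brake list's 1 call became 0 with normexp, on the deposited scale, without the filter, with probes above background on all 4 arrays and with the replicate block, and was 0 to 1 with 1 array left out. With 1 array left out, the median change of the 10 genes (0.07) ran from 0.027 to 0.052. That of the regulator list (0.17) ran from -0.01 to 0.28, and that of the kinase and activator list (0.07) from 0.048 to 0.093. The median of the adaptor list (-0.01) ran from -0.10 to 0.04 and that of the brake list (-0.02) from -0.12 to 0.04. On the deposited scale the median of the 10 genes was 0.33. Across genes, deviations of same-numbered arrays correlated at 0.424. With 2 pairs this can neither show nor exclude a pairing. Under the replicate block Bcl3 had an adjusted p = 0.0473 and Nfkbiz 0.0917 (limma). The normexp setting used the median spot signal and was chosen after seeing the files. The planned one on mean signals was not run. The cause of these moves was not tested. Signal over background limits the dim targets, which have only bounds in 1 group.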
